A study of Mus musculus with 28 samples.

Results

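Interferon response genes are described here across 7 lines of mIMCD-3 cells. The members are 45 genes, taken by symbol from a list of interferon receptor chains, kinases, transcription factors, nucleic acid sensors and antiviral effectors, and all 45 were found among the 45706 genes that both expression tables hold. RNA sequencing was performed on 28 libraries, 4 for each line. The study asked how far wild-type cells differ from one another before any gene is edited.

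mIMCD-3 cells are epithelial and come from collecting ducts of the inner kidney medulla of a mouse transgenic for SV40. Polyclonal WT is the parental culture of this line. Monoclonal WT5 is 1 clone, grown from a single sorted cell of that culture, and subclones 1 to 5 were each grown from a single sorted WT5 cell, so that WT5 and its subclones stand for 1 cell of the parental culture. No line was edited or treated, and no interferon was added to any of them. All lines share the same medium with serum, and RNA was taken 4 days after the cultures became confluent. The study describes the replicates of a line as biological in one place and as technical in another, so the p-values below measure the spread between these libraries.

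Type I interferon binds a receptor of paired chains, Ifnar1 and Ifnar2, and activates the kinases Jak1 and Tyk2 that are attached to them. These phosphorylate Stat2, which joins Irf9 in the complex ISGF3 and enters the nucleus. There ISGF3 binds a short DNA element that carries repeats of GAAA and switches on many antiviral genes, and many cell types, epithelia among them, keep a low output of these genes when no virus is present.

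The promoter letters of 6 members are shown because genes with the same element differed widely in how far they changed between the lines. The search covered the 250 bases before each RefSeq gene start on GRCm38.p6, for GAAANNGAAA on either strand (TTTCNNTTTC when read from the other strand), with overlapping matches counted. Capitals mark the matches, the flanks are up to 15 bases, and each sequence is read 5′ to 3′ on the strand of the gene.
Ifit1, chr19:34640770-34640828, plus strand: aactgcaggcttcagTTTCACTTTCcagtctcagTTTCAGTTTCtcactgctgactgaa
Ifit3, chr19:34583358-34583431, plus strand: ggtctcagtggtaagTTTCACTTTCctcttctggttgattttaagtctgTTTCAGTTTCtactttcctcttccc
Isg15, chr4:156200860-156200911, minus strand: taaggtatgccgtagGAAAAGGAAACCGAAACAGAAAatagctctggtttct
Oas1a, chr5:120907526-120907560, minus strand: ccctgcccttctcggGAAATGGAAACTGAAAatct
Oas3, chr5:120777710-120777749, minus strand: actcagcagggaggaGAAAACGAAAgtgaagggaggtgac
Rsad2, chr12:26456548-26456587, minus strand: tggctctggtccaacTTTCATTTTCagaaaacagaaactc

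Ifit1 and Ifit3 lie on the same strand with 52140 bases between them, and Oas1a and Oas3 belong to the Oas cluster of chromosome 5. Ifit1 had matches 85 and 104 bases before its start, and Ifit3 had the same letters at 122 and 156 bases. A match was found in 11 of the 36 members that have a promoter window (30.6%), against 936 of 27025 genes (3.46%) and 2.98% of all 32851 windows. The other members with a match were Bst2, Gbp2, Gbp3, Ifitm2 and Stat2. Of members that were lower in WT5 by the test below, 5 of 11 with a window had a match, and of the other members tested, 6 of 23. A match is a string of letters and was not tested as a binding site.

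Expression is given in TPM (a transcript level scaled to the length of the gene and to the total of the library), so levels of different genes may be set side by side. TPM keeps no sequencing depth, so the depth of the libraries is unknown and no counting error can be given. Between 16270 and 17004 genes had a TPM above 0 in libraries of WT5 and the subclones, and between 18681 and 19272 in polyclonal WT. Among epithelial and collecting duct markers, mean TPM over the lines ran from 465 to 603 for Epcam and from 360 to 1005 for Krt8. Mean Cdh1 was 145 TPM in polyclonal WT, 97.6 in WT5 and 60.8 to 94.8 in the subclones. Aqp2, the water channel of the collecting duct, was listed at 0 in all 28 libraries, and mean Aqp3 was at most 0.89. Avpr2, of the same list, had a mean of 10.6 TPM in polyclonal WT, 0.06 in WT5 and 0.03 to 0.2 in the subclones. Among leukocyte markers, Cd3e, Adgre1 and Siglech were listed at 0 in all libraries and mean Ptprc was at most 0.138. Mean Cd68, another of these markers, ran from 1.83 to 3.73 TPM over the lines. The summed leukocyte markers were 12.6 to 14.3 TPM in polyclonal WT, 38.7 to 44.9 in WT5 and 28.4 to 55.6 in the subclones, most of it from Csf1r, and the part of this in the results was not tested. In bulk RNA, fewer expressing cells and less RNA per cell cannot be told apart. Polyclonal WT was sequenced with shorter single-end reads and at another time than WT5, so line and sequencing cannot be told apart between them. The subclones stand in a table separate from WT5, and a shift common to all 5 subclones cannot be told apart from the tables.

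Members covered a wide range of levels. Ifit3 and Ifitm2 were the most abundant in each line, with mean TPM of 422 to 573 for Ifit3, of a family that binds viral RNA, and of 227 to 289 for Ifitm2, a membrane protein that hinders viral entry. Summed over the 45 members, TPM was 1742 ± 70.6 (SD, n = 4) in polyclonal WT, 1724 ± 31.8 (SD, n = 4) in WT5 and between 1716 and 1857 on average in the subclones. The sum is carried by the few abundant genes. Ifit3 and Ifitm2 share sequence with near copies: 51.2% of the 50-base stretches of Ifit3 also occur in Ifit3b, and 48.5% of those of Ifitm2 occur elsewhere, so their own levels are uncertain. Ifit3 and Ifit3b together stood at 583 ± 21.9 TPM (SD, n = 4) in polyclonal WT and 662 ± 31.4 (SD, n = 4) in WT5.

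WT5 was first compared with polyclonal WT, to ask how a clone differs from the culture it came from. A share of the antiviral effectors, led by Ifi44, Rsad2, Gbp3, Samd9l and Ifit1, was lower in WT5, as was the sensor Zbp1, while no receptor chain, kinase or transcription factor passed both thresholds. Of 41 members with a TPM above 0 in every library, 15 (36.6%) differed at an adjusted p below 0.01 and by more than 1 on the log2 scale, and all 15 were lower in WT5. Of all 13723 genes tested, 23.2% passed the same thresholds, 11.3% as higher and 12% as lower. The test was limma with Benjamini-Hochberg adjustment over all genes tested, on log2(TPM) relative to the median gene of each library. The median log2 difference was -0.43 over the 41 members and -0.05 over all genes tested. Without a threshold on size, 26 members were lower and 5 higher, where 34.3% of all genes were lower and 31.1% higher.

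Centring matters in this comparison, because the median log2 difference over all genes tested was 0.24 in TPM as deposited, WT5 minus polyclonal WT. The centring takes the median of each library, so its shift was another amount, and it moved Irf1 from 0.04 to -0.25. Without the centring, 11 members were lower and 1 was higher, among 1174 genes lower (8.55%) and 2327 higher (17%), in place of 1643 lower and 1547 higher with it. Dtx3l, Ifitm3 and Oas1a then differed by -0.86, -0.99 and -0.96, below the size threshold, Oas3 no longer passed, and Stat2 passed as higher at 1.03. By adjusted p alone and without centring, 19 members were lower and 11 higher, in place of 26 and 5 with it. Of all 13723 genes, 9155 passed that p threshold without centring, in either direction. By the z-score rule of the study's methods, here an adjusted p below 0.01 and a difference above 1 in log2(TPM) standardised within each library over genes (a fold of 8.56 at the mean SD of 3.10), 2 members passed, Ifi44 and Rsad2, where 5.43% of all genes did.

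**Figure D1:**
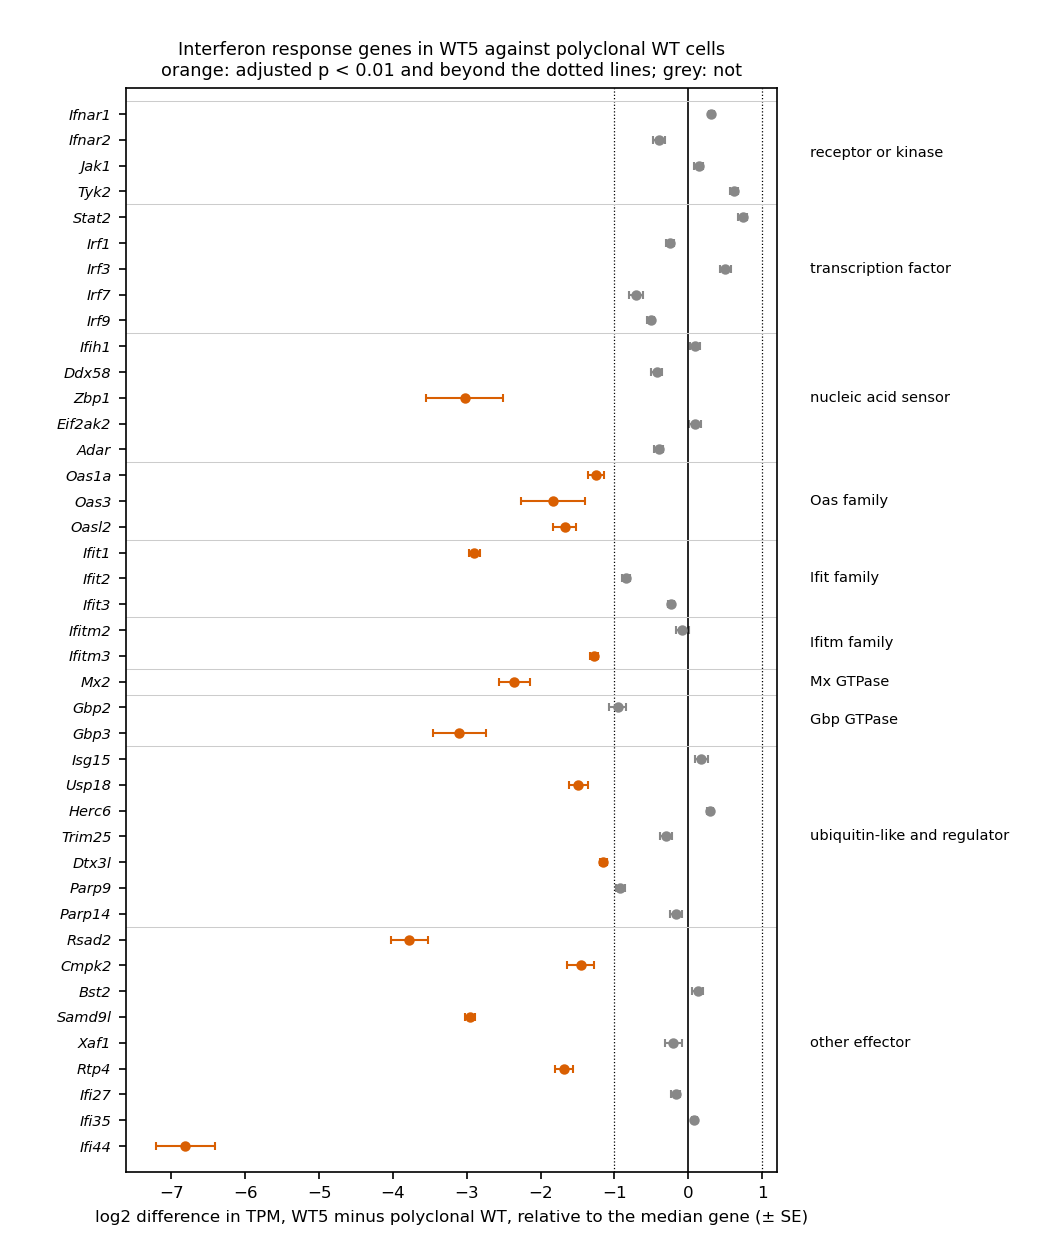
Log2 difference in TPM between WT5 and polyclonal WT for the 41 members tested, relative to the median gene, on the horizontal axis, with members on the vertical axis grouped by role (points, limma estimate; bars, SE; n = 4 libraries per line). The 15 members in orange passed both thresholds and all lie left of the dotted line at -1, from Dtx3l at -1.15 to Ifi44 at -6.81, while no receptor, kinase or transcription factor is among them.

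None of the 4 receptor and kinase members and none of the 5 transcription factors passed both thresholds. Stat2, which carries the signal from the receptor into ISGF3, stood at 5.24, 5.55, 6.69 and 5.54 TPM in the polyclonal libraries and at 11.33, 11.67, 12.1 and 11.59 in those of WT5. Every WT5 library was above every polyclonal one, and the log2 difference was 0.74 (SE 0.07, adjusted p = 2.57e-05, limma). Tyk2 gave 5.51, 6.31, 6 and 6.1 TPM in polyclonal WT and 10.8, 11.53, 11.2 and 11.29 in WT5, again without overlap, with a log2 difference of 0.62 (SE 0.05, adjusted p = 1.97e-05, limma). Both differences lay under the size threshold, in the direction opposite to that of the 15 called members.

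Ifnar1 had 41.93, 43.71, 44.71 and 44.23 TPM in polyclonal WT and 64.31, 66.39, 68.22 and 66.02 in WT5, with all WT5 libraries higher (log2 difference 0.31, SE 0.03, adjusted p = 8.30e-05, limma). Ifnar2, the other chain, had 77.47, 87.31, 89.74 and 69.29 TPM against 73.85, 70.93, 75.31 and 79.65, and these overlapped (log2 difference -0.40, SE 0.09, adjusted p = 0.00384, limma). Jak1 stood at 26.63, 26.43, 28.82 and 30.13 TPM against 35.92, 36.38, 41.77 and 36.92, and its log2 difference of 0.14 did not pass (SE 0.06, adjusted p = 0.063, limma). Jak1 did not overlap between the lines as TPM, and neither receptor chain was below 41.93 TPM in any library of the pair.

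Irf9, the DNA-binding part of ISGF3, had 19.11, 18.86, 18.56 and 17.61 TPM in polyclonal WT and 15.77, 16.42, 15.79 and 15.64 in WT5. All WT5 libraries were lower, with a log2 difference of -0.51 (SE 0.04, adjusted p = 1.80e-05, limma). Irf7, which amplifies interferon production, differed by -0.71 and Irf3, which switches on interferon genes after virus is sensed, by 0.50. Irf1 gave a difference of -0.25 that turned to 0.04 without centring. On log2(TPM) without centring, Irf9, Ifnar2 and Trim25 were the tested members whose means moved least over the 7 lines, with ranges of 0.22, 0.29 and 0.15. On the centred scale of the tests, Irf9 and Ifnar2 differed by more than that between WT5 and polyclonal WT alone, by -0.51 and -0.40.

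**Figure D2:**
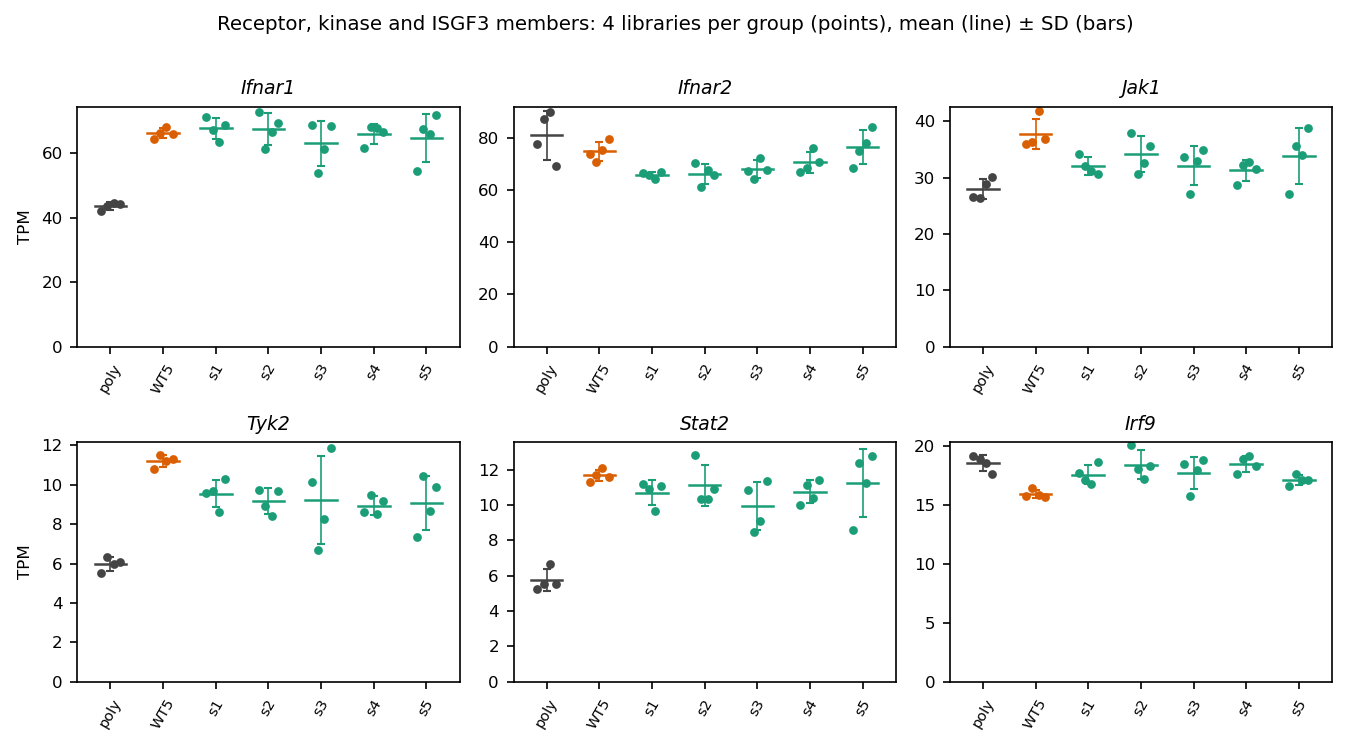
TPM of both receptor chains, both kinases, Stat2 and Irf9 (vertical axes, each from 0) in polyclonal WT (poly), WT5 and subclones 1 to 5 (s1 to s5), with 1 point per library, the mean as a line and the SD as bars (n = 4). Tyk2 has a mean of 5.98 TPM in polyclonal WT and of 8.95 to 11.2 in the other lines, whereas the means of Irf9 stay between 15.9 and 18.5.

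Among nucleic acid sensors, 1 of 5 passed both thresholds. Zbp1, which senses Z-form nucleic acid and can trigger cell death, had 1.09, 1.55, 1.21 and 0.97 TPM in polyclonal WT and 0.15, 0.52, 0.08 and 0.16 in WT5. The lines did not overlap, although replicate 2 of WT5 was well above the other three, and the log2 difference was -3.03 (SE 0.52, adjusted p = 0.00107, limma). It missed the threshold in the unequal-variance test (adjusted p = 0.0165). The RNA helicase Ifih1 (MDA5) and the kinase Eif2ak2 (PKR) differed by 0.09 each, and the helicase Ddx58 (RIG-I) and the RNA editing enzyme Adar by -0.43 and -0.40.

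All 3 members of the Oas family that could be tested were lower in WT5. Oas proteins make short adenylate chains that activate RNase L, which cuts viral and cellular RNA. Oasl2 had 8.56, 8.21, 11.22 and 10.91 TPM in polyclonal WT and 3.29, 3.76, 3.14 and 4.78 in WT5, without overlap, a log2 difference of -1.67 (SE 0.16, adjusted p = 3.67e-05, limma). Oas1a had 10.07, 8.6, 11.62 and 9.65 TPM against 5.53, 5.08, 4.45 and 5.46, a log2 difference of -1.25 (SE 0.11, adjusted p = 2.06e-05, limma).

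Oas1a shares 57.6% of its 50-base stretches with Oas1g, so reads may be split between these genes. Polyclonal WT had shorter, single-end reads than WT5, and whether this split differs between these lines was not tested. Oas1g had 4.62 ± 0.845 TPM (SD, n = 4) in polyclonal WT and 0.0425 ± 0.0126 (SD, n = 4) in WT5, and the sum of both was 14.6 ± 1.58 TPM in polyclonal WT and 5.17 ± 0.505 in WT5 (SD, n = 4). Oas3 was low throughout, with 0.73, 0.29, 0.74 and 0.42 TPM in polyclonal WT and 0.29, 0.22, 0.16 and 0.09 in WT5, and the lines touched at 0.29. Its log2 difference of -1.83 (SE 0.44, adjusted p = 0.00579, limma) lost its call when any of polyclonal replicates 1, 3 and 4 or WT5 replicates 2, 3 and 4 was left out (log2 differences -1.94 to -1.52, adjusted p from 0.011 to 0.0179).

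The Ifit family split. Ifit1, which binds RNA that lacks the cap methylation of host messages, had 35.89, 27.61, 32.4 and 31.85 TPM in polyclonal WT and 5.06, 5.46, 5.26 and 5.13 in WT5. The lines were far apart and the WT5 libraries nearly level, with a log2 difference of -2.90 (SE 0.07, adjusted p = 3.93e-08, limma). Its neighbours on chromosome 19 differed less: Ifit2 by -0.84 and Ifit3 by -0.23, the latter turning to 0.06 without centring. Ifit1 and Ifit3 carry the same capital letters in the sequences above and differed in this way.

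GTPases showed a similar split. Gbp3, a guanylate-binding protein, had 3.25, 2.85, 4.19 and 5.36 TPM in polyclonal WT and 0.38, 0.46, 0.45 and 1.09 in WT5, where replicate 4 stood above the rest. The lines did not overlap and the log2 difference was -3.10 (SE 0.36, adjusted p = 1.03e-04, limma). Gbp2 had 5.16, 3.97, 5 and 5.33 TPM against 3.57, 2.83, 2.98 and 2.87, a log2 difference of -0.96 that missed the size threshold (SE 0.12, adjusted p = 1.63e-04, limma). Mx2, a dynamin-like GTPase whose gene is annotated as a polymorphic pseudogene, had 1.54, 2.05, 2.61 and 2 TPM against 0.58, 0.44, 0.6 and 0.35. These did not overlap either, and the log2 difference was -2.36 (SE 0.21, adjusted p = 2.64e-05, limma). In the Ifitm family, whose members sit in membranes and hinder viral fusion, Ifitm3 differed by -1.28 and Ifitm2 by -0.08.

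**Figure D3:**
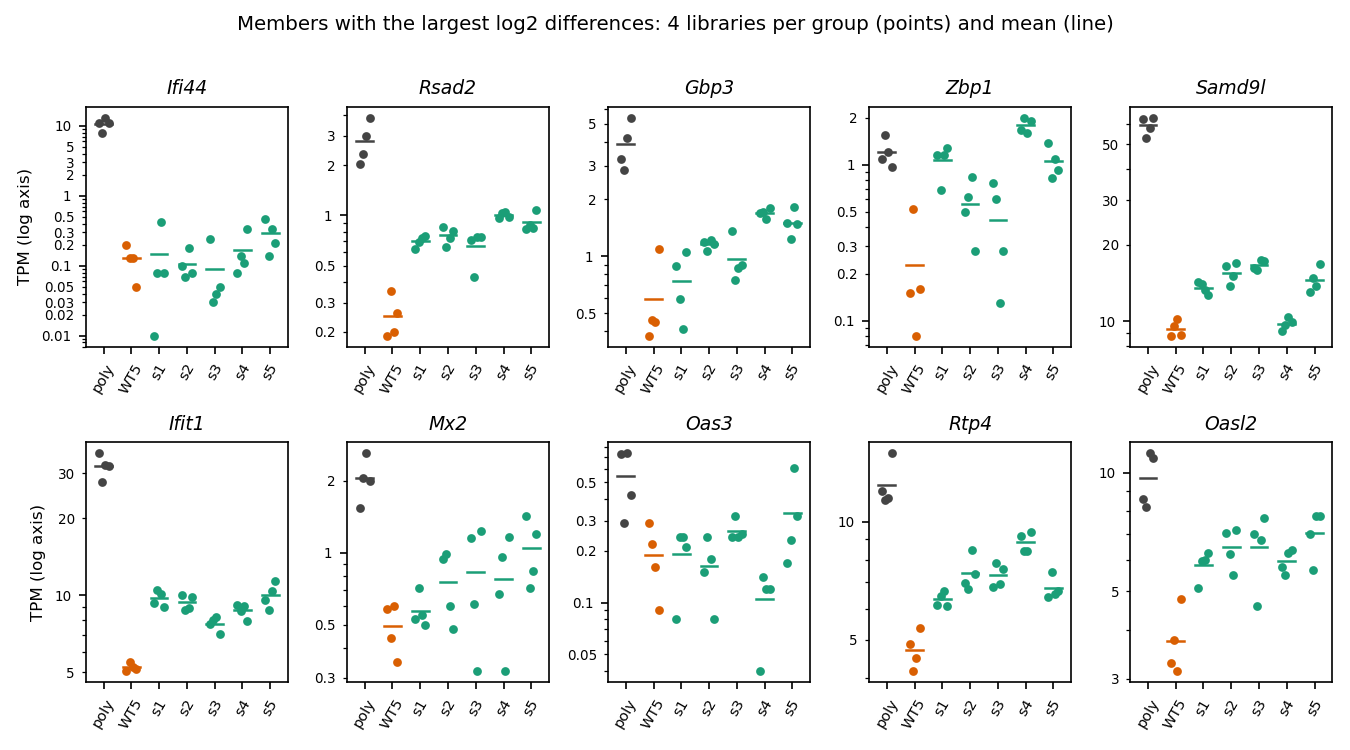
TPM on log axes of the 10 members with the largest log2 differences between WT5 and polyclonal WT, in polyclonal WT (poly), WT5 and subclones 1 to 5 (s1 to s5), with 1 point per library and the mean as a line (n = 4). Ifi44 lies between 7.97 and 12.99 TPM in polyclonal WT and at or under 0.47 in all other libraries, whereas Rsad2, at 0.19 to 0.35 in WT5, lies between 0.43 and 1.08 in the subclones.

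Other effectors held the largest changes. Ifi44, an interferon-induced protein of the cytoplasm, had 10.81, 7.97, 12.99 and 10.8 TPM in polyclonal WT and 0.2, 0.13, 0.13 and 0.05 in WT5. The log2 difference was -6.81 (SE 0.40, adjusted p = 2.53e-06, limma), a fold of 112 against WT5 levels of 0.2 TPM and below. Rsad2 (viperin), an enzyme that makes a chain-terminating nucleotide, had 2.03, 2.33, 2.99 and 3.85 TPM against 0.19, 0.35, 0.2 and 0.26, a log2 difference of -3.78 (SE 0.25, adjusted p = 5.17e-06, limma). Cmpk2, a mitochondrial nucleotide kinase whose gene lies head to head with Rsad2 across 12752 bases of chromosome 12, had 1.53, 1.64, 1.93 and 2.37 TPM against 0.64, 1.07, 0.87 and 0.76. All of its WT5 libraries were lower, with a log2 difference of -1.46 (SE 0.18, adjusted p = 1.64e-04, limma).

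Samd9l, which restrains translation and cell growth, had 62.76, 52.86, 57.86 and 63.41 TPM in polyclonal WT and 8.78, 9.56, 10.18 and 8.86 in WT5, a log2 difference of -2.95 (SE 0.07, adjusted p = 2.77e-08, limma). Rtp4, a chaperone of receptor trafficking with antiviral activity, had 11.93, 11.36, 11.47 and 14.94 TPM against 4.86, 4.16, 4.49 and 5.36, a log2 difference of -1.68 (SE 0.12, adjusted p = 7.54e-06, limma). The remaining effectors did not pass: Bst2 (tetherin), which holds budding virus at the cell surface, Ifi35, Ifi27 and Xaf1 differed by 0.13, 0.08, -0.17 and -0.20.

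Among ubiquitin-like genes and regulators, 2 of 7 passed both thresholds. Usp18, which removes Isg15 from proteins and dampens signalling at the receptor, fell by 1.49 on the log2 scale, and Dtx3l, a ubiquitin ligase, by 1.15. Dtx3l and Parp9, whose products work as a pair, overlap head to head on chromosome 16 with starts 681 bases apart, and Parp9 differed by -0.92. Isg15 itself, the ubiquitin-like modifier, differed by 0.18 and its ligase Herc6 by 0.29, while the ligase Trim25 and Parp14 differed by -0.30 and -0.17. Isg15 carries 3 overlapping matches of the element.

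Mx1, Oas2, Oasl1 and Ifitm1 had a TPM of 0 in some library and were not part of the test. Oasl1 was listed at 0.32, 0.9, 1.16 and 0.85 TPM in polyclonal WT and at 0, 0.02, 0 and 0 in WT5, and in the subclones it ranged from 0 to 0.39. Oas2 was listed at 0.21, 0.15, 0.32 and 0.61 TPM in polyclonal WT, at 0 in all WT5 libraries and at most at 0.05 in the subclones. Mx1 was listed at 0.51, 0.43, 0.18 and 0.41 TPM in polyclonal WT, at 0.2, 0, 0 and 0 in WT5 and at most at 0.05 in the subclones. Ifitm1 showed no such order, with 0, 0.73, 0 and 0.32 TPM in polyclonal WT and 0.06, 0, 0 and 0.3 in WT5. When every gene above 0 in any library was tested with a pseudocount of 0.1, all 45 members entered, and 18 were lower in WT5 (16.4% of 23738 genes were), with Mx1, Oas2 and Oasl1 added.

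Each subclone was then compared with WT5, to ask whether lines sorted again from the clone kept its low levels. These comparisons all use the same WT5 libraries and are set side by side. Called members numbered 3 of 41 in subclone 1 (7.32%, against 3.12% of 13860 genes), 1 in subclone 2 (2.44%, against 2.68%), 1 in subclone 3 (2.44%, against 3.97%), 6 in subclone 4 (14.6%, against 5.32%) and 6 in subclone 5 (14.6%, against 3.67%). The shares in subclones 2 and 3 were thus at or under those of all genes. Without centring, subclone 4 had 4 calls (9.76%, against 5.14%) and subclone 5 had 2 (4.88%, against 3.45%). Leaving out any 1 library gave 1 to 4 calls in subclone 5, with 1 left without its replicate 1, and 4 to 6 in subclone 4. Of all 13860 genes, 398 to 469 were then called in subclone 5 and 656 to 709 in subclone 4. Of the 17 calls with all libraries and centring, 16 were higher in the subclone, and the exception was Oas1a in subclone 1. The median log2 difference over the 41 members was 0.18, 0.17, 0.28, 0.28 and 0.29 in subclones 1 to 5, where that over all genes was within 0.03 of 0.

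Without the size threshold, members higher and lower than in WT5 numbered 13 and 5 in subclone 1, 15 and 3 in subclone 2, 13 and 1 in subclone 3, 19 and 2 in subclone 4, and 16 and 0 in subclone 5. Among all genes, the shares higher at that threshold were 12.1%, 13.2%, 8.88%, 19.9% and 10.9% in subclones 1 to 5, and the shares lower were 14.3%, 14.5%, 9.74%, 17.2% and 12.1%. Without centring, members higher and lower by this criterion numbered 10 and 4, 10 and 3, 5 and 3, 16 and 3, and 9 and 0. Of all 13860 genes, 3548, 2917, 2277, 5136 and 2253 then passed it in subclones 1 to 5, in either direction. With both thresholds and all genes, leaving out the centring moved the counts higher and lower from 334 and 216 to 237 and 264 in subclone 3, from 496 and 242 to 398 and 315 in subclone 4, and from 284 and 225 to 203 and 275 in subclone 5.

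**Figure D4:**
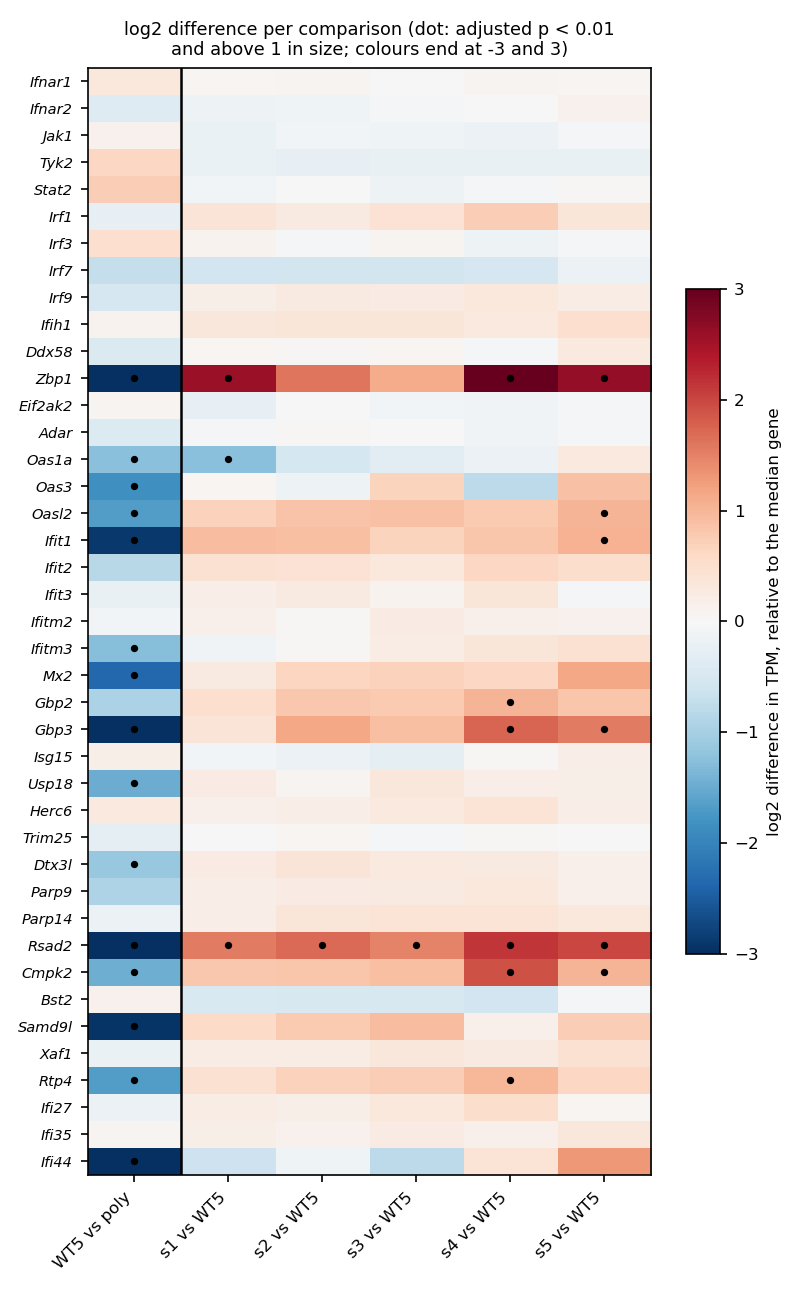
Log2 difference in TPM relative to the median gene for the 41 members tested (vertical axis) in each comparison (horizontal axis; s1 to s5 are subclones 1 to 5), with red higher and blue lower in the line named first, colours ending at -3 and 3, and dots on differences past both thresholds. The column left of the line holds 15 dots, all blue, and the subclone columns hold 3, 1, 1, 6 and 6 dots, with Rsad2 dotted in each; the subclone columns share the WT5 libraries.

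Rsad2 was the member called in every subclone. It had 0.63, 0.69, 0.73 and 0.75 TPM in subclone 1, 0.85, 0.65, 0.73 and 0.81 in subclone 2, and 0.71, 0.43, 0.74 and 0.74 in subclone 3. In subclone 4 it had 0.96, 1.03, 1.05 and 0.98 TPM and in subclone 5 it had 0.83, 0.88, 0.84 and 1.08. Each of these 20 libraries was above the highest WT5 library, at 0.35, and below the lowest polyclonal one, at 2.03. The log2 differences from WT5 were 1.56, 1.70, 1.50, 2.14 and 2.00 in subclones 1 to 5 (SE 0.18 to 0.22, adjusted p = 7.57e-05 to 0.00186, limma). In the unequal-variance test it passed in subclones 4 and 5 only, with adjusted p of 0.012 to 0.014 in the other three, and with a pseudocount of 1 its differences fell to between 0.48 and 0.77.

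Zbp1 was called in subclones 1, 4 and 5. It had 1.16, 0.69, 1.15 and 1.28 TPM in subclone 1, 1.68, 2, 1.61 and 1.91 in subclone 4, and 1.38, 0.82, 1.09 and 0.93 in subclone 5. All of these were above the WT5 libraries, and the log2 differences were 2.59 (SE 0.54, adjusted p = 0.0072), 3.43 (SE 0.51, adjusted p = 0.00108) and 2.65 (SE 0.54, adjusted p = 0.00722), each from limma. Subclones 2 and 3, with 0.28 to 0.83 and 0.13 to 0.76 TPM, overlapped WT5 and were not called. The call in subclone 1 was lost without any of WT5 replicates 1, 3 and 4 or any 1 replicate of the subclone (log2 differences 2.19 to 2.79, adjusted p from 0.0128 to 0.0215). In subclone 5 the same held (log2 differences 2.25 to 2.78, adjusted p from 0.0141 to 0.0225). In the unequal-variance test none of the 3 calls remained (adjusted p from 0.0234 to 0.0431).

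Cmpk2 and Gbp3 were called in subclones 4 and 5. Cmpk2 had 2.72, 3.05, 3.01 and 2.84 TPM in subclone 4, all above WT5 and also above each polyclonal library, and 1.54, 1.6, 1.63 and 1.38 in subclone 5. The log2 differences from WT5 were 1.92 (SE 0.13, adjusted p = 3.30e-05, limma) and 1.01 (SE 0.16, adjusted p = 0.00229, limma). That in subclone 5 dropped to between 0.90 and 0.98 without WT5 replicate 1 or 4 or subclone replicate 1 or 3. Gbp3 had 1.69, 1.71, 1.57 and 1.8 TPM in subclone 4 and 1.49, 1.23, 1.81 and 1.47 in subclone 5, above all WT5 libraries, with log2 differences of 1.74 (SE 0.31, adjusted p = 0.0026, limma) and 1.56 (SE 0.33, adjusted p = 0.00849, limma). The call in subclone 4 was lost in the unequal-variance test (adjusted p = 0.0344) and with a pseudocount of 1 (log2 difference 0.86). That in subclone 5 was lost without any of WT5 replicates 1, 2 and 3 or any 1 replicate of subclone 5 (log2 differences 1.41 to 1.68, adjusted p from 0.0144 to 0.0265).

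The other higher calls lay close to the size threshold. In subclone 4, Gbp2 had 5.79, 5.57, 5.93 and 5.91 TPM and a log2 difference of 1.02 (SE 0.09, adjusted p = 9.08e-05, limma), which was 0.98 to 1.00 without WT5 replicate 2, 3 or 4. Rtp4 had 9.17, 8.43, 8.41 and 9.39 TPM there and a log2 difference of 1.01 (SE 0.10, adjusted p = 1.24e-04, limma), which was 0.94 to 0.98 without WT5 replicate 2 or 3 or subclone replicate 1 or 4. Both stood above all WT5 libraries, which ended at 3.57 for Gbp2 and 5.36 for Rtp4.

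In subclone 5, Ifit1 had 9.56, 8.76, 10.38 and 11.32 TPM and a log2 difference of 1.04 (SE 0.09, adjusted p = 2.04e-04, limma), which was 0.99 without subclone replicate 1. Oasl2 had 7, 5.65, 7.77 and 7.76 TPM there and a log2 difference of 1.03 (SE 0.17, adjusted p = 0.00324, limma). It lost its call without any of WT5 replicates 1, 2 and 3 or subclone replicates 1, 3 and 4 (log2 differences 0.94 to 1.03, adjusted p from 0.0084 to 0.0119). Ifit1 was above WT5 in each of the other subclones as well, with log2 differences of 0.93, 0.89, 0.66 and 0.83 in subclones 1 to 4, which did not pass the size threshold.

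Oas1a went the other way in subclone 1. It had 2.16, 1.87, 2.37 and 1.95 TPM there, all under the lowest WT5 library at 4.45, and the log2 difference was -1.26 (SE 0.12, adjusted p = 2.80e-04, limma). Together with its near copy Oas1g, TPM was 2.13 ± 0.236 (SD, n = 4) in subclone 1 and 5.17 ± 0.505 (SD, n = 4) in WT5. In subclones 2 to 5 the log2 differences of Oas1a were -0.53, -0.33, -0.17 and 0.29, none past the p threshold.

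The members that were furthest below polyclonal WT in WT5 did not move alike in the subclones. Ifi44 stayed at means of 0.09 to 0.29 TPM and Oas3 at 0.105 to 0.333, and neither was called in any subclone. Samd9l had means of 9.80 to 16.7 TPM, against 9.35 in WT5 and 59.2 in polyclonal WT, with log2 differences from WT5 of 0.58, 0.79, 0.94, 0.16 and 0.75, under the size threshold. Mx2 had means of 0.573 to 1.04 TPM, against 0.493 in WT5 and 2.05 in polyclonal WT, and was not called. Usp18, at 3.86 to 4.47 TPM on average, and Ifitm3, at 32.3 to 45.8, were not called either. Subclones were not tested against polyclonal WT.

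Signalling members gave no call in any subclone. Their log2 differences from WT5 lay between -0.24 and 0.13 for both receptor chains, Jak1 and Tyk2, and between -0.14 and 0.03 for Stat2. Irf9 differed by 0.18 to 0.31. Irf1, an activator of many of these effectors, stood highest in subclone 4, with 46.45, 49.44, 46.32 and 48.1 TPM against 27.97, 33.13, 30.32 and 29.92 in WT5, a log2 difference of 0.74 that passed the p threshold alone (SE 0.05, adjusted p = 1.99e-05, limma). Irf7 had differences of -0.57, -0.56 and -0.56 in subclones 1 to 3 that passed the p threshold alone (adjusted p = 0.00151 to 0.00167, limma), and -0.51 and -0.17 in subclones 4 and 5 that did not. Bst2 differed by -0.45, -0.48 and -0.58 in subclones 1, 2 and 4, past the p threshold alone, and by -0.49 and -0.04 in subclones 3 and 5.

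The 5 subclones were compared with one another, a comparison that stays within 1 table. Of 41 members, 4 (9.76%) differed among them at an adjusted p below 0.01 in limma's moderated F test with a range of means above 1 on the log2 scale, where 5.46% of 14031 genes did. These were Zbp1, Oas1a, Gbp3 and Cmpk2. The median range was 0.32 over the 41 members and 0.29 over all genes tested, and without the size threshold 14 members (34.1%) and 24.3% of all genes passed.

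Zbp1 spanned the widest range of the 4, 2.31 on the log2 scale from subclone 3 to subclone 4 (adjusted p = 0.00369, limma). Its libraries had 0.76, 0.6, 0.13 and 0.28 TPM in subclone 3 and 0.5, 0.62, 0.83 and 0.28 in subclone 2, with much spread, and all 4 of subclone 4 were above those of every other subclone. Of 10 pairs of subclones, 4 against 2 and 4 against 3 passed both thresholds. The call was lost without replicate 4 of subclone 3 or replicate 2 or 4 of subclone 4 (ranges 2.15 to 2.28, adjusted p = 0.0102 to 0.0105, limma). It was also lost in the unequal-variance test (adjusted p = 0.0192), and with a pseudocount of 1 the range was 0.97.

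Oas1a spanned 1.55 (adjusted p = 3.43e-07, limma), lowest in subclone 1 and highest in subclone 5, where its libraries had 5.92, 5.45, 5.5 and 6.35 TPM. Subclone 1 stood below all other subclones without overlap, and its pairs with subclones 4 and 5 passed both thresholds, at 1.09 and 1.55. Neighbours in the order of its means, namely subclones 2, 3 and 4 at 3.44, 3.81 and 4.28 TPM, did not differ past the thresholds. Cmpk2 spanned 1.10 (adjusted p = 9.10e-06, limma), and here subclone 4 stood above all other subclones without overlap, while those had means of 1.41 to 1.54 TPM. Gbp3 spanned 1.35 (adjusted p = 5.04e-04, limma), with subclone 1 lower than subclones 4 and 5 past both thresholds. It had 0.89, 0.59, 0.41 and 1.05 TPM in subclone 1 and 1.19, 1.06, 1.22 and 1.16 in subclone 2.

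**Figure D5:**
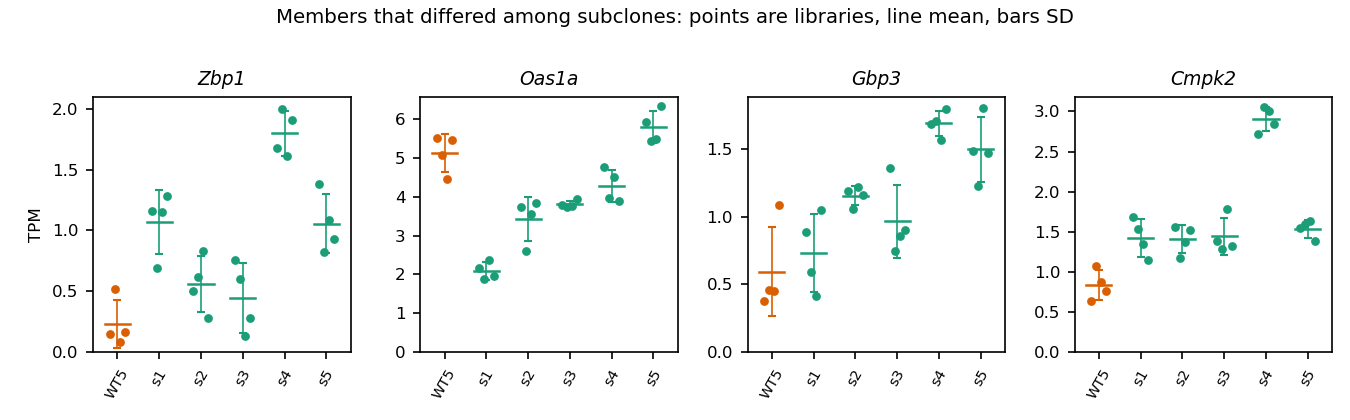
TPM (vertical axes from 0) of the 4 members that differed among subclones, in WT5 and subclones 1 to 5 (s1 to s5), with 1 point per library, the mean as a line and the SD as bars (n = 4). Zbp1 and Cmpk2 peak in subclone 4 at means of 1.80 and 2.91, Oas1a is lowest in subclone 1 at 2.09, and Gbp3 runs from 0.735 in subclone 1 to 1.69 in subclone 4.

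Samd9l did not follow Zbp1 and Cmpk2, which peaked in subclone 4. It was lowest in subclone 4, with 9.15, 9.69, 10.41 and 9.95 TPM, and highest in subclone 3, with 16.18, 15.94, 17.4 and 17.25, a range of 0.78 that passed the p threshold alone (adjusted p = 8.03e-07, limma). The 6 members called in subclone 4 against WT5, Zbp1, Cmpk2, Rsad2, Gbp3, Gbp2 and Rtp4, also had their highest subclone mean there. They were called for being high in subclone 4, so this is no separate evidence. Subclone 5 had the highest subclone mean for Oas1a, Oas3, Oasl2, Ifit1, Mx2, Isg15, Bst2 and Ifitm3. Of these, only Oas1a, Bst2 and Ifitm3 passed the p threshold among the subclones. Isg15 and Oas3 each had 1 high library in subclone 5, at 54.81 TPM (others 35.8 to 43.18) and 0.61 TPM (others 0.17 to 0.32). Subclones 4 and 5 did not differ past the thresholds in Gbp3 (adjusted p = 0.601, limma) or Zbp1 (adjusted p = 0.22, limma), nor did subclones 4 and 1 in Zbp1 (adjusted p = 0.232, limma), and the highest single libraries of Rsad2 and Gbp3, at 1.08 and 1.81 TPM, were in subclone 5.

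Another 75 genes of the pathway, from a list that shares no gene with the members, were examined in the same fits. The interferon genes themselves were at or near 0: of 10 ligands, 7 were listed at 0 in all 28 libraries and the summed TPM of the 10 was at most 0.29 in any library. Between WT5 and polyclonal WT, 58 of the 75 were tested, and 9 were higher (15.5%) and 8 lower (13.8%), shares near the background of all genes. Those lower were Oas1g, Apol9b, Apol9a, Ifi47, Ifit1bl1, Lgals3bp, Rnf213 and Cxcl10, with log2 differences from -7.08 for Oas1g to -1.22 for Rnf213, and Cxcl10 just past the size threshold. Those higher were Irf8, Gbp9, Socs3, Lgals9, Helz2, Gbp7, Trim56, Ly6e and Ifnlr1, with differences from 4.88 to 1.00. By adjusted p alone, 25.9% of the 58 were higher and 41.4% lower, against 31.1% and 34.3% of all genes.

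Irf8, a transcription factor best known from myeloid cells, had 0.45, 0.28, 0.46 and 0.8 TPM in polyclonal WT and 15.51, 16.75, 17.15 and 17.43 in WT5. Its mean in the subclones was 14.0 to 16.6 TPM. Of the leukocyte markers, Csf1r stood at 10.6 ± 0.570 TPM (SD, n = 4) in polyclonal WT and 38.8 ± 3.03 (SD, n = 4) in WT5. Itgam, a myeloid integrin of the same list, lay the other way, at 0.23, 0.37, 0.55 and 0.6 TPM in polyclonal WT and listed at 0 in all WT5 libraries, and Ptprc was at 0.03 TPM on average in both. Gbp9, a further guanylate-binding protein, had 0.84, 0.4, 0.5 and 0.45 TPM against 6.99, 8.17, 9 and 8.45, opposite in direction to Gbp3. Socs3, a feedback inhibitor of Jak kinases, rose from 6.8 ± 0.566 to 29.2 ± 1.24 TPM (SD, n = 4).

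Of the same list, 57 genes were tested in the subclones, and 3, 1, 3, 3 and 3 of them were called in subclones 1 to 5 (5.26%, 1.75%, 5.26%, 5.26% and 5.26%), shares near the 3.12%, 2.68%, 3.97%, 5.32% and 3.67% of all genes. By adjusted p alone, 28.1%, 24.6%, 19.3%, 21.1% and 26.3% of the 57 were higher than in WT5. Of all genes, 12.1%, 13.2%, 8.88%, 19.9% and 10.9% were higher. Shares lower were 14.0%, 10.5%, 5.26%, 17.5% and 8.77%, against 14.3%, 14.5%, 9.74%, 17.2% and 12.1% of all genes. Ccl5, a chemokine, was called as higher than WT5 in all 5 subclones, with means of 17.4 to 40.1 TPM against 7.92 ± 0.386 (SD, n = 4), and the chemokine Cxcl10 in subclones 1, 4 and 5, with log2 differences of 1.06, 1.40 and 1.45. Gbp6 was called in subclones 3, 4 and 5, Ifit1bl1 in subclone 3, and Irf5 as lower in subclone 1. Among the subclones, Ccl5, Irf5 and Lgals3bp passed both thresholds, 3 of 57 genes (5.26%) against 5.46% of all genes. By adjusted p alone, 35.1% of the 57 and 24.3% of all genes passed there.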

How the data were processed

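RNA was sequenced from 28 libraries. The authors deposited TPM per gene, which they had obtained with STAR 2.7.3a (alignment, GRCm38) and RSEM 1.3.1 (quantification), with gene models of Ensembl release 81. CASAVA 1.8 is also named in the submitters' processing notes. Reads with adapters or mainly low-quality bases had been removed. One table holds polyclonal WT and WT5, the other the subclones, and they were joined by gene identifier. TPM keeps no depth, so no test for read counts was run.

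log2(TPM) without a pseudocount was centred on each library's median gene and tested with limma 3.58.1 (R 4.3.3), two-sided. A gene was tested where TPM exceeded 0 in every library of the lines compared: 13723 genes for WT5 and polyclonal WT, 13860 for the comparisons of subclones with WT5 (TPM above 0 throughout the 24 libraries), and 14031 among the subclones. Only the libraries compared entered a fit. p-values were adjusted by the Benjamini-Hochberg method over all genes tested, and a gene was called at an adjusted p below 0.01 and a log2 difference above 1 in size. The fits were checked on simulated data. The methods of the study use z-scores and an unequal-variance test, which were run as alternatives. The others were pseudocounts of 0.1 and 1, a mean TPM of at least 1, genes above 0 in any library, no centring, rescaling over nuclear protein-coding genes, each threshold changed, a block for replicate numbers, a single fit of the 24 libraries, and each replicate left out.

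Values by library are given for up to 10 members called per comparison, the largest first, for Stat2, Irf9, Ifnar1, Ifnar2, Jak1 and Tyk2, and for members listed at 0 in some library. Trim25, Irf9 and Ifnar2 are named as the most stable in log2(TPM) without centring. Gbp2 in WT5 and polyclonal WT, Irf1, and Samd9l among the subclones were given by library after their values were seen, as were other pathway genes and markers. The members and lists were chosen with earlier results of these data known. Gene positions and transcripts are from GENCODE M21 on GRCm38 and promoter windows from RefSeq on GRCm38.p6, with no window for 9 members. Sequence sharing was counted over stretches of 50 bases. The Python version was 3.11.15 (numpy 2.4.6, pandas 2.3.3, matplotlib 3.10.9). Some genes of the pathway and marker lists are not reported here.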

Additional observations from a re-analysis of the deposited data

Results flagged for a closer look

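In 20 members, the library farthest from its group was compared with the range of the 4 libraries, in 140 groups in all. Chance alone marks about 1 in 20 such groups, and 7 were marked, so the number is no more than chance gives. Gbp3 stood at 1.09 TPM in WT5 replicate 4, where the others had 0.38 to 0.46, and Jak1 at 41.77 in WT5 replicate 3, where they had 35.92 to 36.92. Rtp4 stood at 14.94 TPM in polyclonal WT replicate 4 (others 11.36 to 11.93). Ifi44 stood at 0.42 TPM in subclone 1 replicate 3 (others 0.01 to 0.08) and at 0.24 in subclone 3 replicate 1 (others 0.03 to 0.05). In subclone 3 replicate 2, Oas3 stood at 0.32 TPM (others 0.24 to 0.25) and Rsad2 at 0.43 (others 0.71 to 0.74). The cause of none of these was tested.

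Effects differed between subclones in 4 members by limma's moderated F test. The range of the subclone means was 2.31 on the log2 scale for Zbp1 (adjusted p = 0.00369), 1.55 for Oas1a (adjusted p = 3.43e-07), 1.35 for Gbp3 (adjusted p = 5.04e-04) and 1.10 for Cmpk2 (adjusted p = 9.10e-06).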

How the results depend on the processing

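No called member changed direction under any alternative. By adjusted p alone, 31 members passed between WT5 and polyclonal WT, 18, 18, 14, 21 and 16 in subclones 1 to 5, and 14 among the subclones. By the z-score rule these counts were 2, then 0, 0, 0, 1 and 0, then 0. Of all genes, 0.144% to 0.202% passed this rule in the subclone comparisons and 0.613% among the subclones. On the z-scores, limma gave 24 to 30 members with unadjusted p below 0.05 in the 5 subclone comparisons. Of all 13860 genes, 6406 to 8184 had such a p. Among the subclones, 25 members and 6558 of 14031 genes had one. With a pseudocount of 1, which shrinks low genes, 0, 0, 0, 2 and 0 members were called in subclones 1 to 5 (25 to 28 at unadjusted p below 0.05 by limma where none was called) and 1 among them. Of all genes, 140, 125, 195, 256 and 170 of 13860 were called in subclones 1 to 5, and 298 of 14031 among them. Where no member was called, 6667 to 7420 genes had an unadjusted p below 0.05 by limma. The unequal-variance test called 1, 0, 0, 4 and 2 in subclones 1 to 5 (22 to 27 at unadjusted p below 0.05), where it called 238, 209, 238, 495 and 247 of 13860 genes. It gave 5558 to 7610 of these genes an unadjusted p below 0.05. When a mean TPM of 1 or more was required, which leaves out Rsad2, 1, 0 and 0 were called in subclones 1 to 3 (limma, 24 to 27 at unadjusted p below 0.05). Of all genes kept by this filter, 253 of 11901, 234 of 11897 and 352 of 11939 were called there. Between 5743 and 6750 of them had an unadjusted p below 0.05 by limma. Subclone 2 had 2 calls at an adjusted p below 0.05 and 2 with all 24 libraries in a single fit, subclone 3 had 2 with genes above 0 in any library, and subclone 5 had 2 without centring. Of all genes, 559 of 13860, 447 of 13860, 529 of 21939 and 478 of 13860 were called in these settings, in the same order.

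With each replicate left out in turn, members called numbered 14 to 16 between WT5 and polyclonal WT, 2 to 3, 1 to 2, 1 to 3, 4 to 6 and 1 to 4 in subclones 1 to 5, and 3 to 4 among the subclones. Of all genes, 3085 to 3173 of 13723 were called between WT5 and polyclonal WT. In subclones 1 to 5, 355 to 393, 316 to 344, 412 to 545, 656 to 709 and 398 to 469 of 13860 were. Among the subclones, 736 to 773 of 14031 were. In subclone 5 each count of members was below the 6 found with all libraries. It was 1 without subclone replicate 1, where 469 of all genes were called.

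Equal replicate numbers did not mark paired libraries: their deviations from the group means correlated between -0.0114 and 0.0135 in WT5 and polyclonal WT between -0.0406 and 0.0507 in WT5 and the subclones, and between -0.243 and 0.116 in pairs of subclones, with no pair of lines above 0.1 throughout. With the replicate number as a block, 15 members and 3079 of 13723 genes were called between WT5 and polyclonal WT. In subclones 1 to 5, 2, 1, 0, 6 and 2 members were called, and 253, 263, 283, 602 and 342 of 13860 genes. In subclone 3, 23 members and 5545 genes had an unadjusted p below 0.05 by limma. Among the subclones, 4 members and 746 of 14031 genes were called. TPM of unknown depth limits what can be said of members below about 1 TPM.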
